A study of Mus musculus with 2 samples.

Results

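The 50 genes described here act in mitosis, from the entry kinase Cdk1 to the cytokinesis factor Ect2, and were taken from the deposited matrices by exact match of the gene symbol. All 50 were present among the 32285 genes listed, and each had unique molecular identifiers (UMIs, counted RNA molecules) in both libraries. Lobules III and IV of the mouse cerebellum were dissected at P1 and dissociated with papain, and single cells were captured in droplets for counting of transcript 3′ ends. One library came from Cxcr4+/+ mice (control) and 1 from Cxcr4+/1013 littermates (mutant), both under the strain label B6.129S2-Cxcr4tm1.1Bala. Cxcr4 encodes a chemokine receptor, and the 1013 allele truncates its tail and is carried in the germline, so in every cell type. Title and genotype labels name Cxcr4+/1013, the protocol text names Cxcr4+/-, and the genotype label was followed here. How many animals were pooled for a library is not stated in the labels. With 1 library per genotype there is no replicate check and no test. Every interval below is a 95% interval that covers counting error only.

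Entry into mitosis is driven by CDK1 with its B-type cyclins. Kinesins, kinetochore proteins and the kinases of the Aurora, Polo and BUB families then build and check the spindle, and the anaphase-promoting complex with CDC20 and UBE2C ends the phase by marking cyclin B and securin for destruction. In the newborn cerebellum, granule cell progenitors of the external granule layer divide in response to Sonic hedgehog, while Purkinje cells have long left the cycle. Many genes of this kind share promoter elements: the CCAAT box, bound by NF-Y, and the cell cycle genes homology region TTTGAA, a target of the DREAM and MuvB complexes.

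The promoters are shown because all 50 genes were higher in the mitosis than in the S window, whereas the 6 printed here lay far apart in ependymal cells (both described below). In the RefSeq promoter table of build GRCm38.p6, 42 of the 50 genes were matched, with 46 windows that reach from 250 bases before to 50 bases after a start site. TTTGAA on either strand was found in 32 of the 46 windows (69.6%), against 17.9% of all 32851 windows of that length. CCAAT on either strand was found in 80.4% against 37.4%, and 2 or more copies in 56.5% against 11.7%. A CCAAT together with TTTGAA or the variant TTTAAA was found in 69.6% of the windows of the mitosis genes and in 10.7% of all windows. Matches of different motifs may share bases, and a match describes these letters only, not binding. Each line gives the 150 bases that end just before the more upstream of the RefSeq and GENCODE start sites, 5′ to 3′ on the gene's strand. Capitals mark CCAAT or TTTGAA on either strand (ATTGG and TTCAAA on the reverse).
Ckap5: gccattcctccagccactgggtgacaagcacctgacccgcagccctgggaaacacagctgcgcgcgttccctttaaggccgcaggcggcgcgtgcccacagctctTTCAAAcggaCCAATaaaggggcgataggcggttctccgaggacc
Ckap2l: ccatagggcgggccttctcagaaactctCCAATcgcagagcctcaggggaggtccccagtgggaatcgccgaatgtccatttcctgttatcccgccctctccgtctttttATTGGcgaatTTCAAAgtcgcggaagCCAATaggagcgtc
Top2a: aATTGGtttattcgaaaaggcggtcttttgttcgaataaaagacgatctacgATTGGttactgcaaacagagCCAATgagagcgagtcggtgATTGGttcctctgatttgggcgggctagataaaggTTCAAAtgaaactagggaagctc
Cdk1: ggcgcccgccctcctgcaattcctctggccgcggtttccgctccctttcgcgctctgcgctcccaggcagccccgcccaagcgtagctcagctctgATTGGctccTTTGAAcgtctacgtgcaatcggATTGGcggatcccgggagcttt
Mki67: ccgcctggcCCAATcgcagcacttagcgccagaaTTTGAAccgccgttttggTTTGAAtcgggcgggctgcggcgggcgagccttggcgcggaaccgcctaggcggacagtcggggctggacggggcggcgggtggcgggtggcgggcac
Ube2c: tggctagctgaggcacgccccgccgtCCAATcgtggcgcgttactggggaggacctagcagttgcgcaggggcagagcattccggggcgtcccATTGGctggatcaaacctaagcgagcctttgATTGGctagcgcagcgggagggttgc
Ckap5 lies at chr2:91526762-91620664 on the plus strand, and its printed stretch is chr2:91526612-91526761. Ckap2l lies at chr2:129268210-129297212 on the minus strand, and its printed stretch is chr2:129297213-129297362. Top2a lies at chr11:98992943-99024189 on the minus strand, and its printed stretch is chr11:99024190-99024339. Cdk1 lies at chr10:69335146-69352938 on the minus strand, and its printed stretch is chr10:69352939-69353088. Mki67 lies at chr7:135689784-135716361 on the minus strand, and its printed stretch is chr7:135716380-135716529. Ube2c lies at chr2:164769898-164778822 on the plus strand, and its printed stretch is chr2:164769748-164769897. Within these stretches Top2a held 4 CCAAT boxes, Ckap2l and Ube2c 3, Cdk1 2, and Ckap5 and Mki67 1. Mki67 held 2 copies of TTTGAA, Ckap5, Ckap2l, Top2a and Cdk1 held 1, and Ube2c held none in these 150 bases.

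The libraries were of similar depth. Of 9586 control and 9551 mutant barcodes, 8353 and 8194 had at least 500 genes and at most 10% mitochondrial UMIs, with medians of 12101 and 13557.5 UMIs, and 25 barcode sequences occurred in both libraries. The mitosis genes summed to 372294 and 410247 UMIs, or 3244 and 3252 counts per 1000000 UMIs (CPM). Barcodes were assigned to 16 marker lists, here called gates, that hold none of the 50 genes. This placed 6282 control (75.2%) and 6602 mutant barcodes (80.6%). A further 440 and 497 matched 2 lists, 317 of them those of granule cell progenitor and granule neuron, and 1631 and 1095 matched none, with medians of only 2450 and 4472 UMIs. The gates are called by their lists. The progenitor gate carried its defining transcription factor Atoh1 at 87.6 and 95.9 CPM against 1.4 and 1.7 in the other gates, but Olig3 of the same list was at 0. The Purkinje gate carried the calcium buffer Calb1 at 3470 and 3612 CPM against 24.5 and 22.1. The ependymal gate carried the ciliogenesis factor Foxj1 at 845 and 934 CPM against 6.2 and 4.1.

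To ask which cell types held cells with mitotic transcripts, each barcode was thinned to 2000 UMIs, and a barcode with UMIs of at least 5 of the 50 genes was called G2/M-range. The call is a range on a count, not a cell type. It left out 942 control and 411 mutant barcodes under 2000 UMIs. G2/M-range barcodes numbered 1665 of 7411 control and 1677 of 7783 mutant barcodes. Granule cell progenitors supplied more of them than any other gate, 680 (40.8%) and 773 (46.1%). Astroglia or Bergmann glia supplied 211 (12.7%) and 94 (5.61%), the GABAergic or glial progenitor gate 81 and 121, and granule neurons 83 and 115. Barcodes that matched 2 lists supplied 155 and 210, and ungated ones 182 and 141, so these cells are not placed.

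Within the gates, 69.5% of control (66.5 to 72.3) and 67.3% of mutant granule cell progenitors (64.5 to 70.0) were in the G2/M range. The GABAergic or glial progenitor gate reached 47.6% (39.9 to 55.4) and 53.1% (46.4 to 59.7). Barcodes in the range were also found among glia and non-neural cells. Oligodendrocyte lineage cells gave 29.2% and 26.2%, microglia or macrophages 26.0% and 31.7%, fibroblasts 20.9% and 24.3%, mural cells 21.3% and 25%, and endothelial cells 48.4% of 62 and 25% of 24 barcodes, whose intervals overlap. In the control library the endothelial interval (35.5 to 61.4) lay above that of fibroblasts (15.4 to 27.3). In the mutant library the intervals of these gates overlapped (9.77 to 46.7 and 11.8 to 41.2). The order of the gates just named was not resolved otherwise at these numbers. Purkinje cells, which do not divide at this age, gave 3.32% (2.01 to 5.13) and 3.02% (1.74 to 4.87) at median depths of 32774 and 34619 UMIs. This is the background level of the call. GABAergic interneurons, at 4.91% (3.71 to 6.36) and 4.69% (3.67 to 5.90), overlapped that background. Granule neurons at 8.65% (6.95 to 10.6) and 8.63% (7.17 to 10.3) lay above it. The unipolar brush cell (1.89% and 2.58%), glutamatergic nuclear or midbrain neuron (2.88% and 1.40%) and midbrain-type GABAergic gates (0.730% and 2.46%) did not. Without thinning the shares were 96.6% and 96.4% in progenitors and 58.7% and 60.7% in the deeply sequenced Purkinje cells.

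**Figure D1:**
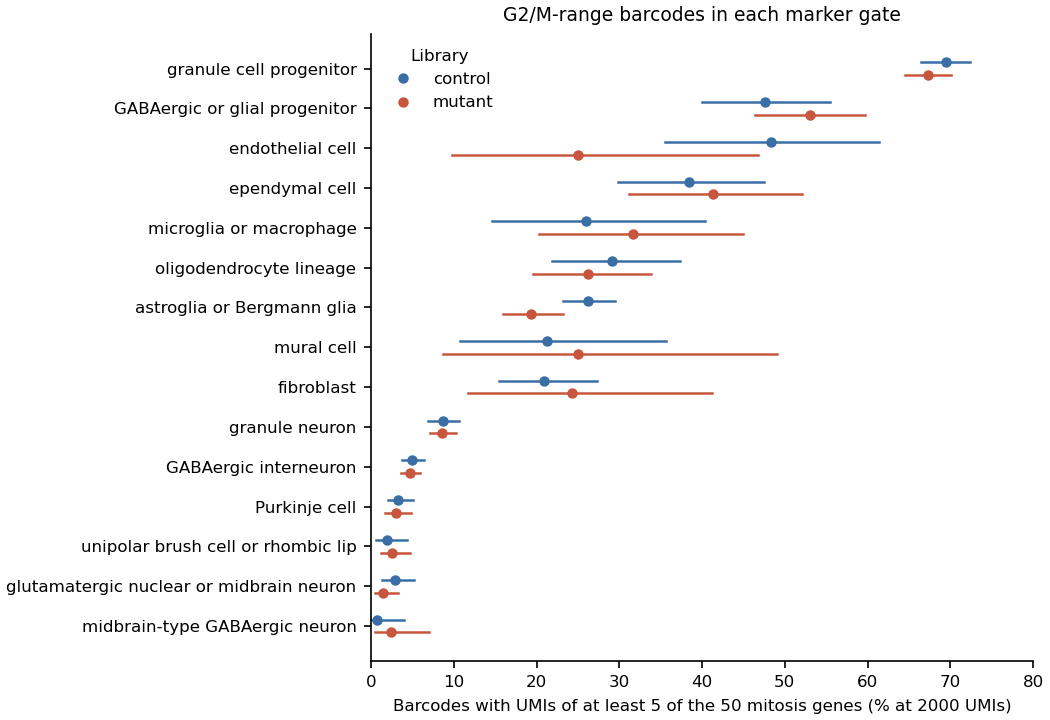
Share of barcodes in the G2/M range (x axis, percent of barcodes after thinning to 2000 UMIs) in 15 marker gates (y axis), control in blue and mutant in red, with exact Clopper-Pearson 95% intervals as lines. Granule cell progenitors sit highest at 69.5% and 67.3%, and the Purkinje gate marks the background near 3%.

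Gates require at least 3 of their own markers, so barcodes in the range hold these by construction, and other lists' markers were counted beside them. The 305 in the astroglial gate had a median of 8 astroglial and 1 progenitor markers, and the 198 in the granule neuron gate a median of 6 granule neuron and 3 progenitor markers. The 15 in the unipolar brush cell gate had a median of 3 own markers against 5 granule neuron and 4 progenitor markers. The 15 in the glutamatergic nuclear gate had 4 own against 5 granule neuron markers. The 4 in the midbrain-type GABAergic gate likewise had 4 own against 5 granule neuron markers. High granule neuron counts were not particular to these gates. In the granule cell progenitor gate the medians were 5 own and 5 granule neuron markers. They were 4 and 4 in the GABAergic or glial progenitor gate, and 5 and 4 in the interneuron gate. The lists also differ in length.

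Scrublet, a caller of doublets (barcodes that hold 2 cells), was read in barcodes with high levels of other mitosis genes (the mitosis window defined below). It marked 2.53% and 2.93% of such progenitors, 4.17% and 5.19% of granule neurons, and 1.56% and 10.6% of the GABAergic or glial progenitor gate. In astroglia it marked 11.0% and 16.9%, against 6.99% and 7.14% of the remaining barcodes, and in interneurons 10.8% and 5.77%, against 3.58% and 2.46%. In the oligodendrocyte lineage it marked 3.45% and 24.1%, against 6.09% and 10.7%. Of the remaining granule neurons it marked 2.52% and 1.75%, and its marks in their window were only 2 and 4 barcodes. The doublet share was thus higher in the window than in the rest of the granule neuron, astroglial and interneuron gates in both libraries. In granule cell progenitors it was lower in the window in both. In the GABAergic or glial progenitor and oligodendrocyte gates the direction differed between libraries. In small groups it marked 33.3% of 6 and 18.8% of 16 microglia, 20.8% of 24 and 16.7% of 6 fibroblasts, 7.14% of 14 and 50% of 4 endothelial cells, and 40% of 10 and 12.5% of 8 Purkinje cells. In the unipolar brush cell gate it marked 80% and 100% of the 5 and 5 barcodes, and in the glutamatergic nuclear gate 66.7% and 100% of the 6 and 2. In the Purkinje window Calb1 stood at 921 and 1997 CPM against 3516 and 3629 in the rest. The part of doublets in the shares of these gates was not tested beyond their removal as an alternative.

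Levels in the progenitor gate spanned more than a factor of 50 between genes. UMIs count 3′ ends, so a CPM needs no division by length, but capture differs between genes and the order of levels is read loosely. Among CDK1 and its partners, the kinase subunit Cks2 was highest, at 478 CPM (control) and 416 CPM (mutant, the order kept from here on), and the phosphatase Cdkn3 lowest at 22.5 and 22.2. Cdk1 itself stood at 261 and 211. Among the mitotic kinases and their activators, Birc5 (survivin, of the chromosomal passenger complex) was highest at 303 and 269, and the Polo kinase Plk1 lowest at 35.1 and 37.4. Ube2c, the ubiquitin-conjugating enzyme of the anaphase-promoting complex, stood at 540 and 482, and its activator Cdc20 at 203 and 188. Of the kinetochore genes, Cenpf was highest (402 and 386) and Nuf2, a part of the NDC80 complex, lowest (47.8 and 48.3). Top2a, the topoisomerase that untangles sister chromatids, led the whole set at 739 and 734, and Cdca2, which recruits a phosphatase to chromatin, was lowest of the chromosome genes at 60.1 and 61.6. Of 16 spindle genes, the microtubule polymerase Ckap5 was highest at 247 and 265, and Gtse1 was lowest of the whole set at 13.9 and 13.3. The cytokinesis genes Ect2 (103 and 101) and Anln (51.7 and 52.8) lay between. In each role the same gene was highest, and the same gene lowest, in both libraries.

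**Figure D2:**
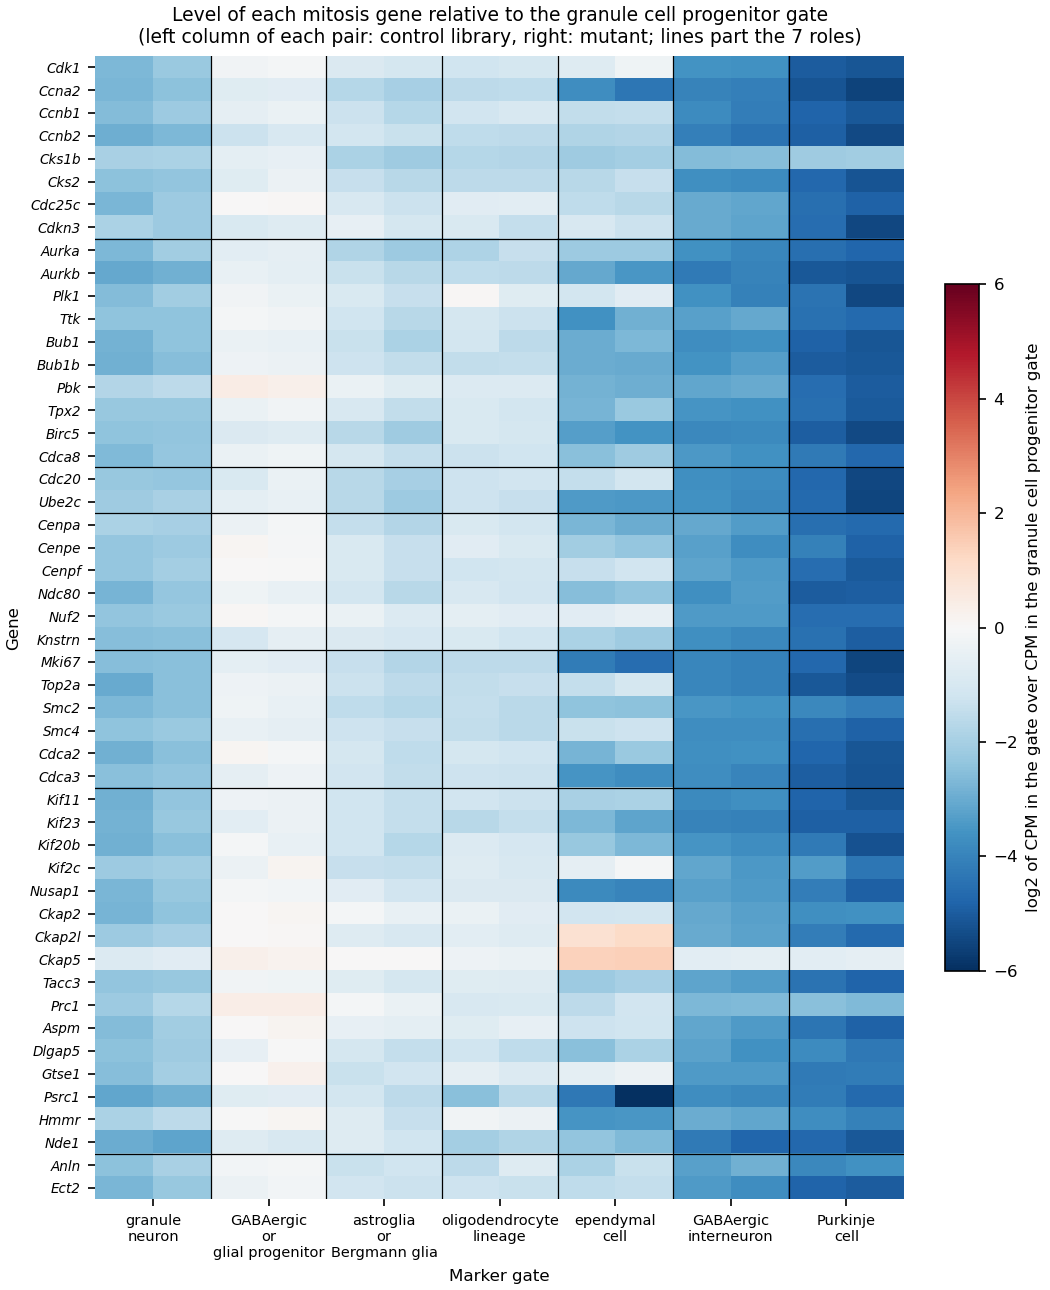
Log2 ratio of each gene's CPM in 7 gates over its CPM in the granule cell progenitor gate (colour), genes in rows by role, gates in paired columns with the control library on the left and the mutant on the right. Ckap5 departs least from the progenitor level in the 3 neuron gates, and Ckap5 and Ckap2l are the only red cells of the ependymal columns.

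Purkinje cells kept few of these transcripts. Of the 50 genes, 49 were at least 1.5-fold lower than in progenitors in both libraries (33.2% of all genes tested were), and none was higher (28.9% of all genes). The exception was Ckap5, at 161 and 181 CPM, or 0.650 (0.620 to 0.682) and 0.681 (0.652 to 0.711) times the progenitor level. After thinning, 29.0% of control and 31.8% of mutant Purkinje barcodes held a Ckap5 UMI, against 31.4% and 34.4% of progenitors. Next came Cks1b, a CDK-binding subunit that also serves the SCF ubiquitin ligase, at 69.1 and 65.3 CPM (0.227 and 0.234 times), and Prc1, which bundles microtubules of the spindle midzone, at 29.8 and 27.8 CPM (0.174 and 0.159 times). By the mean ratio over both libraries Ckap2 (0.079 and 0.079 times) and Anln (0.069 and 0.082 times) followed, though Kif2c stood higher than both in the control library alone (0.0992 and 0.0491 times, from 69 and 34 UMIs). Top2a, by contrast, was at 22 and 17.6 CPM, and Mki67, the chromosome surfactant used as a marker of cycling cells, at 15.0 and 9.63. Top2a and Mki67 thus differed far more between these gates than Ckap5 and Cks1b did. Granule neurons had all 50 genes lower by that measure (background 23.9%), and GABAergic interneurons had 49 lower (24%). No gene was 1.5-fold higher in both libraries in either gate, where 23.3% and 30% of all genes were.

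Astroglia and oligodendrocyte lineage cells each had 43 of the 50 genes at least 1.5-fold lower than progenitors in both libraries (17.3% and 16.4% of all genes). The GABAergic or glial progenitors had 6, which were Ccna2, Ccnb2, Cdkn3, Birc5, Psrc1 and Nde1, close to the background of 10.2%. None was higher in these 3 gates, beside 27.9%, 21% and 14.7% of all genes. Ccnb2, a B-type cyclin, stood at 58.9 and 70.1 CPM there against 142 and 137 in granule cell progenitors. These values mix how many cells divide with what each dividing cell holds. The next comparisons use barcodes chosen by other gene lists, which separates these only in part.

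The progenitor gate was split by 2 other lists, 37 genes of S phase and 60 further mitosis genes, neither of which holds any of the 50. Barcodes with at least 8 genes of a list at 2000 UMIs formed an S window (303 control and 367 mutant barcodes), a mitosis window (208 and 246), an overlap of both (305 and 335) and a low window of neither (163 and 200). The summed level of the 50 genes was 3284 and 2731 CPM in the S window and 15539 and 15618 in the mitosis window. All 50 were at least 1.5-fold higher in the mitosis than in the S window in both libraries, against 6.42% and 5.77% of all genes. Their median log2 ratio was 2.23 and 2.64, against -0.01 and -0.02 over all genes. The median UMIs of these windows also rose, from 14816 and 16195 in S to 21343 and 22790.5 in mitosis, which CPM scales out.

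The genes differed in how steeply they rose. Ube2c went from 71.5 and 40.7 CPM in the S window through 545 and 455 in the overlap to 1257 and 1193 in the mitosis window, 17.6-fold (15.7 to 19.7) and 29.3-fold (25.8 to 33.4). The control and mutant S windows differed for this gene more than the mitosis windows did. Plk1 rose 11.7-fold (7.97 to 17.7) and 31.0-fold (19.4 to 52.8), from only 6.23 and 2.96 CPM. Aspm, which focuses spindle poles in neural progenitors and is mutated in microcephaly, rose 11.5-fold and 15.3-fold, and Cenpf 9.83-fold and 15.6-fold. Gtse1 rose 10.3-fold in the control library and 7.70-fold in the mutant, and the hyaluronan-linked spindle factor Hmmr 8.44-fold and 15.2-fold. Cyclin B1 (Ccnb1) rose 8.29-fold and 14.3-fold, from 41.7 and 24.6 to 345 and 352 CPM.

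At the other end, Cks1b rose 2.201-fold (2.04 to 2.38) and 2.37-fold (2.203 to 2.55), from 206 and 174 CPM in S. The condensin subunits Smc2 and Smc4, which fold chromosomes, rose 2.24-fold and 2.51-fold (Smc2) and 2.997-fold and 2.85-fold (Smc4). The kinase Pbk rose 2.71-fold and 3.53-fold, and Ndc80, of the outer kinetochore, 3.08-fold and 3.28-fold. The checkpoint kinase Ttk rose 3.32-fold and 3.79-fold. For Pbk and Ndc80 most of the rise was already present in the overlap window, where Pbk stood at 225 and 214 CPM and at 218 and 209 in the mitosis window. Top2a also changed little between these windows, with 1040 and 1049 CPM in the overlap and 1136 and 1177 in the mitosis window. Cdc20, Cenpa and Ccnb1 instead kept rising: Cdc20 went from 179 and 149 in the overlap to 409 and 395.

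**Figure D3:**
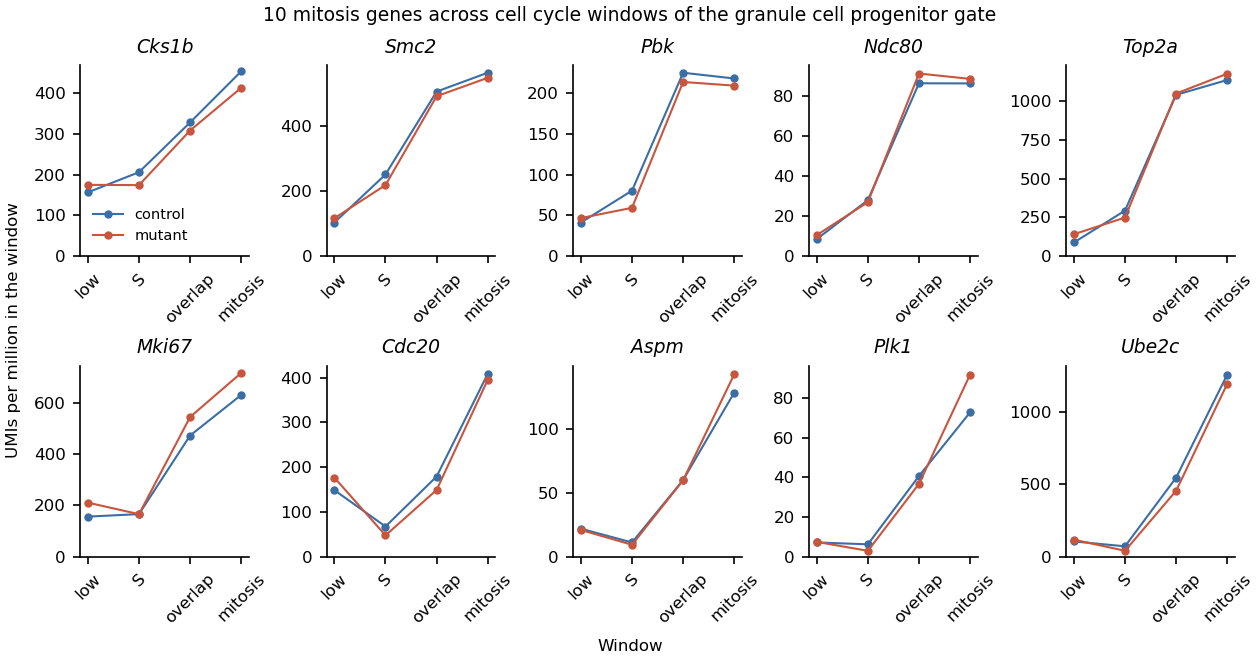
Level of 10 genes (y axis, CPM) in the low, S, overlap and mitosis windows of the granule cell progenitor gate (x axis), control in blue and mutant in red, each point a sum over the barcodes of the window. Pbk, Ndc80 and Top2a level off from the overlap to the mitosis window, while Cdc20, Aspm, Plk1 and Ube2c keep rising.

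The low window was no floor for every gene. Of 48 genes with enough UMIs there, 9 (control library) and 22 (mutant library) were at least 1.5-fold higher in the low than in the S window, where 7.26% and 5.4% of all genes were, and 16 and 6 were lower, where 5.74% and 4.72% were. The 9 were higher in both libraries. They were Ccnb2, Cdkn3, Cdc20, Cenpa, Cenpf, Knstrn, Cdca3, Aspm and Psrc1. Cdc20 stood at 149 and 177 CPM in the low window against 67.4 and 47.6 in the S window, and the centromeric histone Cenpa at 237 and 271 against 114 and 99.3. The kinetochore adaptor Knstrn stood at 74.8 and 72.5 against 37.6 and 29.2. Cdk1, Top2a and Aurkb showed the opposite order: Top2a stood at 88.3 and 142 CPM in the low window and at 294 and 249 in S. The 9 depend on how the windows are set: 4000 UMIs per barcode left 2 genes, and 1 more gene per window gave 19. Those alternative counts have no share over all genes beside them.

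The mitosis genes were next compared between lineages in barcodes that held at least 8 of the 60 further mitosis genes, with or without S phase genes. Their summed level was at 12471 and 12337 CPM in granule cell progenitors, 13244 and 11550.5 in the GABAergic or glial progenitor gate, 12496 and 12167 in astroglia, 12405 and 12748 in oligodendrocyte lineage cells and 11608 and 10821 in interneurons. Granule neurons reached 15288 and 15699 CPM, in 48 and 77 barcodes. The cut on the 60 genes bears on these sums, so their likeness between gates is partly set by the choice of barcodes. These barcodes also pool the overlap and mitosis windows. In progenitors the overlap window stood at 10241 and 9767 CPM, against 15539 and 15618 in the mitosis window. The mix of both windows in other gates was not tested. These granule neuron barcodes carried the neuronal transcription factor Neurod1 at 935 and 1042 CPM and Atoh1 at only 2.5 and 3.9. In the interneuron gate, the 37 and 52 barcodes carried Pax2, a marker of newborn cerebellar interneurons, at 750 and 955 CPM and Atoh1 at 0 and 1.2. The median log2 ratio of the 50 genes to progenitors was 0.01 and -0.02 in astroglia, 0.15 and 0.17 in oligodendrocyte lineage cells, and -0.19 and -0.22 in interneurons.

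Single genes departed from this. In mitosis-window astroglia 5 genes were at least 1.5-fold higher and 2 lower in both libraries, where 18.7% and 12.6% of all genes were, so both counts lie below the background share. Prc1 stood at 542 and 548 CPM against 258 and 268 in progenitors, a ratio of 2.10 (1.97 to 2.24) and 2.04 (1.88 to 2.21). Ckap2, a spindle microtubule stabiliser, stood at 239 and 229 CPM against 116 and 125 (2.06 and 1.83). Pbk (1.65 and 1.61), Aspm (1.59 and 1.78) and Nuf2 (1.56 and 1.61) were higher too. Cks1b stood at 184 and 174 CPM against 380 and 354 (0.485, 0.442 to 0.531, and 0.493, 0.431 to 0.562), and the spindle pole kinase Aurka at 63.1 and 52.0 against 101 and 89.2. Cks1b was also lower in oligodendrocyte lineage cells of this window, at 229 and 204 CPM (0.603 and 0.577). There Hmmr was higher, at 203 and 193 CPM against 98.4 and 99.1 (2.06 and 1.95), Ckap2 stood at 1.65 and 1.51 times and Nde1, a dynein regulator, at 0.451 and 0.562 times the progenitor level. These counts of 2 higher and 2 lower compare with 14.6% and 11.9% of all genes.

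In mitosis-window interneurons Ccnb2 stood at 78.1 and 76.0 CPM against 179 and 176 (0.437, 0.323 to 0.579, and 0.432, 0.333 to 0.552). Nde1 (0.463 and 0.392) and the midzone kinesin Kif23 (0.646 and 0.638) were lower too, and Pbk (1.53 and 1.57) and Hmmr (1.60 and 1.52) higher, so 3 lower and 2 higher beside 15.5% and 14.4% of all genes. The GABAergic or glial progenitors had Ccnb2 lower (105 and 110 CPM, 0.589 and 0.628) and Prc1 higher (457 and 426 CPM, 1.77 and 1.59), beside 10.4% and 12.2% of all genes. Granule neurons of the window had 4 genes higher and none lower, beside 6.96% and 12.5% of all genes. Pbk stood there at 467 and 430 CPM against 222 and 212 (2.10 and 2.03) and Hmmr at 198 and 219 against 98.4 and 99.1 (2.01 and 2.21), while Kif2c (1.60 and 1.63) and Ckap2l (1.63 and 1.62) were closer. TMM scaling would lower the log2 ratios of the astroglial window by 0.19 and 0.22, of the oligodendrocyte window by 0.20 and 0.19, of the interneuron window by 0.18 and 0.18 and of the GABAergic or glial progenitor window by 0.18 and 0.13. On that scale Prc1 in astroglia still stood at 1.84 and 1.76, Ckap2 at 1.80 and 1.58, and Hmmr in oligodendrocyte lineage cells at 1.79 and 1.71, but Pbk in astroglia stood at 1.44 and 1.39 and Ckap2 in oligodendrocyte lineage cells at 1.43 and 1.33. All 22 ratios named in these 2 paragraphs kept their direction under TMM, under Scrublet removal and at 4000 UMIs.

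Ependymal cells line the ventricles with motile cilia and arise from radial glia. Their gate (136 control and 101 mutant barcodes) combined a high G2/M-range share with a low share in the mitosis window. In it 38.4% (29.8 to 47.5) and 41.3% (31.1 to 52.1) of barcodes were in the G2/M range, yet only 6.40% (2.80 to 12.2) and 12% (6.12 to 20.4) reached the mitosis window of the 60 other genes, against 52.4% and 50.6% of granule cell progenitors and 18.2% and 13.4% of astroglia. The 2 shares use different cuts, 5 of the 50 genes for the range and 8 of the 60 for the window. Ependymal barcodes in the range held a median of 7 and 8 of the 50 genes, against 14 and 13 in progenitors. Ckap5 alone had a UMI in 73.6% and 69.6% of ependymal barcodes after thinning, and its part in the G2/M-range share was not tested. Of the 50 genes, 44 were at least 1.5-fold below progenitors in both libraries (background 26.6%), and 2 were higher (background 30.9%). S phase genes stood at 1292 and 1039 CPM, against 6349 and 6227 in progenitors.

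The 2 higher genes were Ckap5, at 653 and 721 CPM against 247 and 265 in progenitors, a ratio of 2.64 (2.51 to 2.79) and 2.72 (2.57 to 2.87), and Ckap2l, another spindle protein, at 121 and 150 CPM against 64.2 and 66.7, a ratio of 1.89 (1.68 to 2.12) and 2.25 (1.99 to 2.53). The microtubule depolymerase Kif2c (0.686 and 0.929), Gtse1 (0.670 and 0.784), Nuf2 (0.623 and 0.711) and Cdk1 (0.585 and 0.835) were closest below the progenitor level. Cdk1 stood at 153 and 176 CPM there. At the low end, Psrc1 gave 5 and 1 UMIs in the whole gate (0.0508 times, 0.0164 to 0.119, and 0.0146 times, 0.000368 to 0.0814), Mki67 21.1 and 18.7 CPM (0.054 and 0.043 times), Nusap1 12.1 and 12.2 CPM (0.070 and 0.065 times) and cyclin A2 (Ccna2) 16.4 and 9.55 CPM (0.076 and 0.049 times). Ube2c was at 51.5 and 43.9 CPM (0.095 and 0.091 times). Ckap5 and Ckap2l had the 2 highest ratios to progenitors and Psrc1 the lowest in both libraries.

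**Figure D4:**
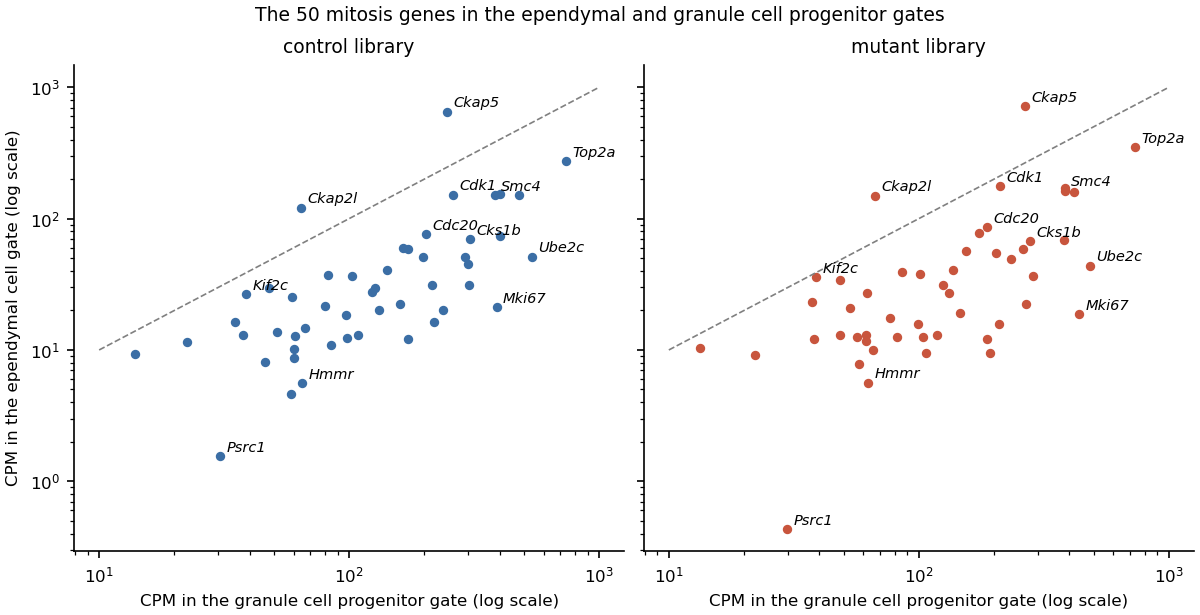
CPM of the 50 genes in the ependymal gate (y axis, log scale) against the granule cell progenitor gate (x axis, log scale), control library left and mutant right; the dashed line marks equal levels. Ckap5 and Ckap2l lie above the line. Kif2c and Cdk1 lie below it, nearer in the mutant than in the control panel, and Mki67, Ube2c and Psrc1 lie far below.

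The pair Top2a and Mki67 shows this most plainly, since both mark cycling cells. In the ependymal gate 883 and 802 Top2a UMIs faced 68 and 43 Mki67 UMIs, or 13.0 (10.1 to 16.9) and 18.7 (13.7 to 26.0) Top2a UMIs per Mki67 UMI. The same ratio was 1.90 and 1.68 in granule cell progenitors, 2.04 and 1.90 in astroglia, 2.03 and 1.93 in oligodendrocyte lineage cells and 1.46 and 1.83 in Purkinje cells. After thinning, 30.4% and 32.6% of ependymal barcodes held a Top2a UMI and 2.40% and 1.09% a Mki67 UMI, whereas 53.8% and 51.5% of progenitors held Top2a and 43.2% and 43.6% Mki67. Under the other settings tried the ependymal ratio ranged from 13.0 to 26.5 (control) and from 17.7 to 92.2 (mutant), and after Scrublet removal it was 19.1 and 20.8.

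Within the ependymal gate, barcodes in the G2/M range were set beside the rest for genes of multiciliated cell differentiation, chosen after their values were seen. Mcidas, a regulator of that fate, stood at 118 and 135 CPM in the 48 and 38 barcodes in the range and at 34.5 and 16.6 in the 77 and 54 others. Deup1, which builds the deuterosomes that multiply centrioles, stood at 778 and 1050 against 202 and 157 CPM. Ccno stood at 151 and 145 against 43.5 and 26.6, and Cdc20b at 474 and 719 against 119 and 54.8. Not all such genes differed alike. The upstream regulator Gmnc stood at 16.5 and 8.26 CPM (20 and 9 UMIs) against 9.50 and 8.31 (19 and 10 UMIs), and Foxj1 at 987 and 1093 against 759 and 790. Tmem212, of ependymal cilia, ran the other way, at 536 and 345 against 1012 and 1245 CPM. The mitosis genes set this split, so their values only describe it: Ckap5 stood at 764 and 770 against 587 and 679 CPM, and Top2a at 530 and 671 against 121 and 58.2. Mki67 stayed low on both sides, at 39.7 and 33.1 against 9.50 and 5.82. Scrublet marked 6.25% of control but 31.6% of mutant barcodes in the range, beside 9.09% and 5.56% of the others, and its part in the mutant values was not tested.

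The 60 other mitosis genes were compared between the ependymal and progenitor gates in the same way. In the ependymal gate 51 were at least 1.5-fold lower in both libraries, beside 26.6% of all genes, and 2 were higher, beside 30.9%. Those were securin (Pttg1), at 248 and 253 CPM against 29.9 and 27.7, and the tubulin Tubb4b, at 2320 and 2357 against 497 and 427.

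Between genotypes, the mitosis genes of granule cell progenitors differed little. Control progenitors summed to 8772 CPM (8728 to 8816) and mutant ones to 8473 CPM (8434 to 8511), a mutant to control ratio of 0.966 (0.959 to 0.972). No gene was 1.5-fold higher or lower, where 3.27% and 1.28% of all genes were. The lowest ratio was that of Cdk1, 261 and 211 CPM (0.810, 0.777 to 0.844), and the highest that of Mki67, 389 and 438 CPM (1.13, 1.09 to 1.16). The difference of the sum had no fixed direction: it was 1.05 (1.04 to 1.06) among barcodes with Xist and no Y-linked UMIs (female) and 0.909 (0.900 to 0.919) among those with Y-linked UMIs and no Xist (male). Its interval is narrow only because it covers counting error. The difference in the G2/M-range share, -2.12 points, lay within -6.14 to 1.91. In the mitosis window of progenitors the ratio of the sum was 0.989 (0.982 to 0.997), with no gene 1.5-fold higher or lower, beside 3.15% and 1.06% of all genes. Sfrp1, a marker that defines the progenitor gate, stood at 202 and 310 CPM in the whole gate. The other detected markers of its list differed less. The effect of this on which barcodes entered the gate was not tested.

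Astroglia had lower values in the mutant library. The share in the G2/M range was 26.2% (23.2 to 29.4) of 804 control and 19.4% (15.96 to 23.2) of 485 mutant barcodes, a difference of -6.86 points (-11.5 to -2.01), and without thinning it was 57.7% in both. It was -2.79 points in male barcodes (-10.1 to 4.82), -3.17 at 1000 UMIs, -4.14 at 4000 UMIs and -3.61 with 3 of the genes required, so its size rests on these choices. The sum of the 50 genes was 4050 and 3215 CPM, a ratio of 0.794 (0.781 to 0.806), and only 3 of the 50 genes had a ratio above 1. Their median log2 ratio was -0.38, against 0.07 over all genes. Of the 50 genes, 5 were at least 1.5-fold lower, beside 1.59% of all genes, and none was higher, beside 4.59%. With a doublet caller's removal, other gates or scalings the 5 became 11 to 17, and in female barcodes 26. The share over all genes was not set beside these alternative counts. Ube2c stood at 169 and 107 CPM (0.635, 0.584 to 0.690), Birc5 at 95.7 and 61.9, the checkpoint kinase Bub1 at 33.9 and 21.8, Aurka at 19.3 and 12.6 and Hmmr at 37.5 and 23.7. The sum was lower in the mutant library among female (0.675) and male barcodes (0.877) alike. In astroglia of the mitosis window the ratio was 0.974 (0.956 to 0.992), with no gene 1.5-fold apart (6.32% and 3.2% of all genes were higher and lower). The S phase list followed with a median log2 ratio of -0.22, and the other mitosis genes with -0.25.

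**Figure D5:**
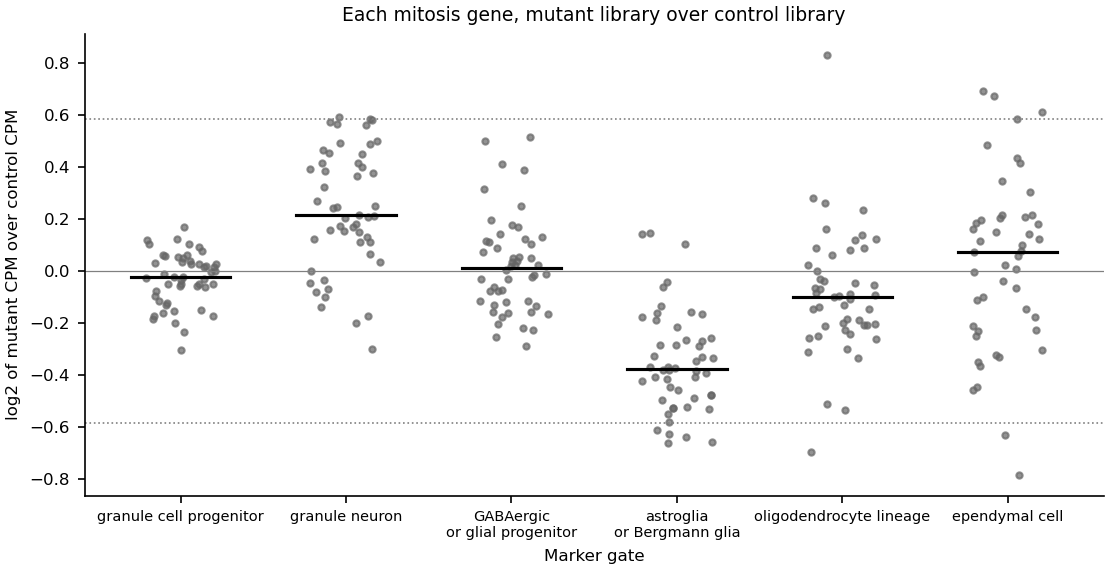
Log2 ratio of mutant over control CPM (y axis) for each mitosis gene with at least 50 UMIs over both libraries in 6 gates (x axis), one point per gene with the median as a bar and dotted lines at 1.5-fold. Astroglial genes lie mostly below 0 with a median of -0.38, and progenitor genes lie between -0.30 and 0.17.

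The other gates were mixed. Granule neurons had a sum of 1668 and 1890 CPM (1.13, 1.11 to 1.15), with Nusap1 (25.7 and 38.6 CPM) and Aspm (9.76 and 14.7 CPM) 1.5-fold higher, 2 of 50 beside 2.93% of all genes, and none lower, beside 1.63%. Of the 50 genes there, 41 had a ratio above 1, with 25 intervals above 1 and 1 below. The share of all genes above 1 was not set beside these counts. The GABAergic or glial progenitors had 6939 and 6908 CPM (0.995, 0.977 to 1.01), and no gene passed 1.5-fold, beside 3.82% and 2.19%. Within their mitosis window the ratio was 0.872 (0.854 to 0.890), with no gene 1.5-fold higher or lower, beside 6.09% and 3.03%. Oligodendrocyte lineage cells had 3883 and 3655 CPM (0.941), with the cytokinesis factor Anln 1.78-fold higher (38 and 89 UMIs) and Plk1 at 0.618 (80 and 65 UMIs), 1 and 1 of 48 genes tested beside 5.33% and 1.85%. Their mitosis window is a part of this gate (29 and 29 barcodes), so its values are no second check. Anln stood at 45.1 and 108 CPM there and Plk1 at 135 and 88.2. These were 1 higher and 1 lower of 47 genes tested, beside 8.68% and 3.8% of all genes. Scrublet marked 3.45% and 24.1% of the window's barcodes. Ependymal cells had 2829 and 3095 CPM (1.09, 1.06 to 1.13), with Tpx2, Cdca2, Dlgap5 and Anln higher and Ccna2 and Kif23 lower, 4 and 2 of 47 genes tested beside 3.6% and 3.62%. The intervals of Cdca2, Dlgap5, Anln and Kif23 hold 1. Interneurons had 914 and 851 CPM (0.931), with no gene 1.5-fold higher or lower, beside 2.29% and 1.87%. In Purkinje cells, at the background level, 10 of 47 genes tested were 1.5-fold lower in the mutant library, beside 2.56% of all genes, and none was higher, beside 2.26%. They were Ube2c, Mki67, Cks2, Birc5, Cdca8, Cdc20, Cenpe, Kif20b, Kif2c and Nusap1. Ube2c there stood at 21.0 and 10.5 CPM and Mki67 at 15.0 and 9.63, while Ckap5 stood at 161 and 181. The 10 control and 8 mutant barcodes of the Purkinje mitosis window had summed levels of 9129 and 4729 CPM. Scrublet marked 40% and 12.5% of them as doublets. The part of these few barcodes in the lower mutant values was not tested.

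The sums of 2 small neuron gates had the lowest and the highest ratio of the 11 gates compared. Scrublet marked most of their few mitosis-window barcodes as doublets, and the part of doublets in these sums was not tested. Glutamatergic nuclear or midbrain neurons had 772 and 545 CPM (0.706, 0.669 to 0.744). There 14 of 29 genes tested were 1.5-fold lower in the mutant library, beside 4.16% of all genes, and none was higher, beside 4.31%. Top2a stood at 39.5 and 15.3 CPM (170 and 67 UMIs) and Cenpf at 34.1 and 11.2 CPM (147 and 49 UMIs). Midbrain-type GABAergic neurons had 622 and 1098 CPM (1.76, 1.62 to 1.92), with 8 of 12 genes tested higher, beside 5.03% of all genes, and none lower, beside 3.5%. Ube2c stood there at 12.3 and 68.6 CPM (17 and 85 UMIs), and the 2 mutant barcodes of the mitosis window, of 122, were both marked by Scrublet. Unipolar brush cells had 701 and 764 CPM (1.09, 1.03 to 1.15). Of their 29 genes tested, Cdk1, Kif11 and Anln were higher and Ccnb2, Cdc20 and Ube2c lower, 3 and 3 beside 2.9% and 3.48% of all genes.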

How the data were processed

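The 2 10X Genomics libraries of P1 mouse cerebellum (1 control, 1 mutant) were prepared with a 3′ kit. The deposited matrices hold raw UMI counts per gene and barcode, made by the authors with Cell Ranger 7.2 after bcl2fastq 2.20.0.4222 on mm10, per the submitters' processing notes. No annotation release or intron setting is stated there. The members and gene lists were chosen with earlier results of these data known.

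Barcodes needed 500 genes and at most 10% mitochondrial UMIs. For gates, log(counts per 10000 + 1) of each marker was scaled to a z-score, capped at 5, and averaged per list. A barcode took its best list if that scored over 0.5 with at least 3 markers detected, and was left out if a second list reached 0.6 of it. These scoring rules were set after seeing the data, and 550 control and 429 mutant barcodes lay within 0.1 of the cut. No doublets were removed in the main values. The Scrublet alternative (scanpy 1.11.5) took the 641 and 626 highest scores. Thinning drew 2000 UMIs per barcode without replacement. Counts were summed per gate and library, and a fold was called at 1.5 with at least 50 UMIs. Intervals are exact (Clopper-Pearson, Poisson, conditional binomial) except that of a difference of shares, which combines both. Genes named were the ends of each role, the 5 steepest and 5 flattest across windows, the 5 highest in Purkinje cells and those past 1.5-fold in both libraries; genes named beyond these were chosen after seeing values. Gene positions are from GENCODE vM21, promoters from RefSeq. TMM factors came from edgeR 4.0.16 and size factors from DESeq2 1.42.0. The calls and the thinning were tested on simulated counts. Alternatives were other filters, gates, depths, thresholds, scalings and single sexes.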

Additional observations from a re-analysis of the deposited data

Results flagged for a closer look

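Sexes were compared as barcodes of 1 library each, and the difference between them was not tested. In granule cell progenitors the mutant to control ratio of the summed mitosis genes was above 1 in female barcodes (8617 and 9040 CPM, 1.05) and below 1 in male ones (8838 and 8037 CPM, 0.909), with 37 and 7 of the 50 genes above 1. The share of all genes above 1 in this gate was not set beside these counts. The G2/M-range share there differed by 1.44 points in female and -2.65 points in male barcodes, and both intervals hold 0.

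The GABAergic or glial progenitor gate had the opposite pattern. Its ratio was 0.772 (8159 and 6298 CPM, 85 and 93 barcodes) in female and 1.12 (6112 and 6874 CPM, 58 and 109 barcodes) in male barcodes. Its G2/M-range share differed by -5.07 points in female and 14.4 points in male barcodes, and both intervals hold 0.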

How the results depend on the processing

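No paired analysis was possible because each genotype has 1 library. Of the alternative values, 137 stayed near the main value, 48 moved and 1 reversed. The progenitor sum, 0.966 in the main setting, reversed to 1.05 in female cells and was 0.909 in male cells, 0.957 at 5% mitochondrial UMIs, 0.959 with 4 markers, 0.893 with a gate score above 1, 0.956 with a second list under 0.4, 0.927 with TMM and 0.928 with size factors. The astroglial sum, 0.794, was 0.766 at 1000 genes, 0.752 at 5%, 0.719 after Scrublet removal, 0.675 in female and 0.877 in male cells, 0.754 and 0.734 with the gate score and second list settings, 0.747 with TMM and 0.751 with size factors, so lower throughout. Its count of 5 lower genes was 11 at 5%, 17 after Scrublet, 26 in female cells, 14 and 16 with the gate settings, 11 with either scaling, 32 at a lower fold threshold and 0 at 2-fold. The astroglial share difference, -6.86 points, was -0.0662 without thinning, and that of GABAergic or glial progenitors, 5.42 points with an interval that holds 0, was -5.07 in female and 14.4 in male cells, -4.00 with 4 markers, -0.585 without thinning and 0.799 after Scrublet, so it has no fixed direction. Genes 5-fold higher in the mitosis than the S window numbered 23, and 42 at 4000 UMIs. Genes higher in the low than in the S window numbered 9, then 2 at 4000 UMIs and 19 with 1 gene more. The 5-fold counts, and all gene counts under alternative settings, have no share over all genes beside them and only describe the settings. Genes 1.5-fold apart in mitosis-window barcodes of other gates changed as follows. Granule neurons: 4 higher, 2 at 4000 UMIs. Interneurons: 2 higher, 0 at 4000 UMIs and with TMM; 3 lower, 5 at 4000 UMIs and 6 with TMM. GABAergic or glial progenitors: 1 higher, 2 after Scrublet, 0 with TMM; 1 lower, 4 with TMM. Astroglia: 5 higher, 2 with TMM; 2 lower, 7 with TMM. Oligodendrocyte lineage: 2 higher, 4 after Scrublet, 1 with TMM; 2 lower, 1 after Scrublet, 5 with TMM. Of the 22 ratios named there, in which some genes recur in several gates, 16 passed 1.5-fold at 4000 UMIs, 20 after Scrublet and 15 with TMM. Top2a per Mki67 in ependymal cells was 19.1, 26.5 and 18.4 in the control library after Scrublet, in male cells and with the stricter second list, and 92.2 in mutant female cells, where few Mki67 UMIs are left. Gate score and second list settings, and all settings for the last ratio, were chosen after seeing the data. Except where the setting itself removes cells, UMIs or scales, the cause was not tested. Depth limits the rare gates: a vascular or immune gate holds under 100 barcodes in a library, and Gtse1 or Psrc1 few UMIs there.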
